A study of Mus musculus with 6 samples.

Results

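The cells of an epithelium are held together by adherens junctions, tight junctions and desmosomes, and are coupled by gap junctions. The genes of these structures were described here in mDCT15 cells, which are cultured mouse cells that derive from the kidney's distal convoluted tubule. They were the genes of the deposited table whose symbol names a cadherin, claudin, desmocollin, desmoglein, connexin, nectin, plakophilin or alpha or delta catenin, or a tight junction protein of the zonula occludens, cingulin, occludin or junctional adhesion molecule families, together with plakoglobin and desmoplakin. This gave 60 of the 20624 genes. None of the 60 symbols occurred more than once. The GENCODE annotation holds 111 protein-coding mouse genes with such symbols, and the other 51 were not analysed here.

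RNA was sequenced, after ribosomal RNA depletion, from 3 *Pkd1*-/- and 3 wild type samples of mDCT15 cells, cultured in the same medium. *Pkd1* encodes polycystin-1, and the *Pkd1*-/- cells were made by genome editing with CRISPR-Cas9. The titles call them *Pkd1*-/-, while the genotype field says knockdown, and whether they are 1 clone was not stated in the sources used here. The measurement used was the authors' mean normalized count, 1 value per gene over all 6 samples, which carries no SD and no n per genotype. The levels therefore describe both genotypes together, and genotypes were not compared, because the remaining values of the table belong to the authors' own comparison. The spread between samples is unknown as well, so the order of genes with near levels was not tested. The counts were taken as not divided by gene length. Levels of different genes are therefore compared here as mean normalized counts per kilobase of the longest annotated transcript. No pair of the 1257 means under 1 was equal. Whole reads scaled by a single factor per library would give genes with the same few reads the same mean. Whether the authors' normalization also used factors of single genes was not tested, and such factors would alter levels between genes.

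At adherens junctions, cadherins bind the same cadherin on the next cell through calcium-dependent extracellular repeats. Catenins tie their tails to actin, and nectins start the contact. At tight junctions, claudins form the strands that seal the space between cells or leave paired channels for ions, which gives each nephron segment its own permeability, and the zonula occludens proteins hold the strands from inside. Desmosomes join desmogleins and desmocollins through plakoglobin, plakophilins and desmoplakin to intermediate filaments. Connexins assemble into the channels of gap junctions.

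The labelled cell type was checked against marker genes. Of 10 markers of the distal convoluted tubule, 6 were among the genes analysed and 3 had a mean normalized count of at least 100. These were *Wnk4* (413.4), a kinase that regulates salt transport, *Stk39* (620.7), a kinase downstream of it, and the potassium channel gene *Kcnj16* (428.0). The defining transporter gene *Slc12a3* and the calcium-binding protein genes *Pvalb* and *Calb1* were not analysed here. Of 10 markers of kidney tubule epithelium, 6 were analysed and 5 had a mean of at least 100, while *Krt18*, *Krt19*, *Cdh1* and *Emx1* were not analysed here. The kidney transcription factor genes *Pax8* (4905) and *Pax2* (2428) were high, while the epithelial keratin gene *Krt8* was at 0.980 and *Epcam* at 115.4. *Vim*, which encodes the intermediate filament protein of mesenchymal and many cultured cells, was at 17450, and the proximal tubule receptor gene *Lrp2* at 8826. Both lists were thus met in part. Of 5 endothelial markers, 2 were analysed, both under 10, and of 5 collecting duct markers 2 were analysed and neither reached 10. The 6 proximal tubule markers gave 4 at 10 or more and 3 at 100 or more, with *Slc34a1* at 2.04 and *Slc5a2* at 2.77. The 8 mesenchymal markers gave 4 at 10 or more and 4 at 100 or more. For the 10 distal convoluted tubule markers these numbers were 5 and 3. The share at 100 was thus no higher for the labelled segment than for proximal tubule or mesenchyme. None of 3 thick ascending limb markers was analysed here. The podocyte list gave *Podxl* at 1270, and the immune list *Cd68* at 41.9 and *Ptprc* at 5.36. Some of the markers analysed are themselves junction genes described below, so the check is not independent of them. They were *Cdh16* for tubule epithelium, *Cdh6* and *Cldn2* for proximal tubule, and *Cdh2* and *Cdh11* for mesenchyme. In a culture, fewer cells of a kind and less RNA per cell cannot be told apart.

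The sequences upstream of 4 members are shown, because they cover the leading cadherin, claudin and connexin per kilobase, which differ widely in CpG content, and *Cdh3*, another high cadherin. Each runs 5′ to 3′ on the strand of the gene and ends at the base before the start of the canonical GENCODE transcript in GRCm39. Capitals mark CpG sites, the pairs of C and G at which mammalian DNA is methylated and which are dense at CpG islands. The intervals are chr8:105351029-105351278 (minus strand) for *Cdh16*, chr8:107237206-107237455 (plus strand) for *Cdh3*, chr5:5564996-5565245 (minus strand) for *Cldn12* and chr11:102710215-102710464 (minus strand) for *Gjc1*. The *Gjc1* interval is upstream of the canonical start but inside the annotated gene, which begins further out, at 102710532.
Cdh16: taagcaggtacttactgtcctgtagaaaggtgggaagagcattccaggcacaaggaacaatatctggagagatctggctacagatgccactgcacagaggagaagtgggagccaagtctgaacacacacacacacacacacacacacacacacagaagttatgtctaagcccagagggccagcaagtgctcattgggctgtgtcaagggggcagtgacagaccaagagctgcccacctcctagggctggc
Cdh3: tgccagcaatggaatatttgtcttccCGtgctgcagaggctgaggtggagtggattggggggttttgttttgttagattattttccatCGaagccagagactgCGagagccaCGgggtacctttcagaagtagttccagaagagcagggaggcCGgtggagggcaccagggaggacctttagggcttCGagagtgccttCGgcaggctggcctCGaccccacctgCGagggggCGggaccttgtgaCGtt
Cldn12: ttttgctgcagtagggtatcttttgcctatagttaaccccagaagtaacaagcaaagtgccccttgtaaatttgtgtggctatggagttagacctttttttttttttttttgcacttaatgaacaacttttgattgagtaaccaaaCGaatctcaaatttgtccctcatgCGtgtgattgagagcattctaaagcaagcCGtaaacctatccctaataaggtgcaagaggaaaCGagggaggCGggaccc
Gjc1: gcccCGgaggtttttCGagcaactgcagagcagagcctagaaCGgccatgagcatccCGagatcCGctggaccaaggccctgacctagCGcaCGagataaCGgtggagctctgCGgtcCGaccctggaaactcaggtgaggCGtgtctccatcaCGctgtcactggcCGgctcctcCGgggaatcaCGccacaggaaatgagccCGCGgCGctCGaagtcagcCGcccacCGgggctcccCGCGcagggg
*Cdh16* has 0 CpG sites in these 250 bases, *Cdh3* has 11, *Cldn12* 5 and *Gjc1* 23.

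Of the 60 junction genes, 43 (71.7%) had a mean normalized count of at least 10, beside 66.5% of all genes of the table and 85.3% of its protein-coding genes. A mean of at least 100 was reached by 29 members (48.3%), beside 50.3% of all genes and 72.9% of protein-coding genes. The median of the members was 89.2, beside 104.5 over all genes. Per kilobase, the median was 21.6 for the members, 39.3 over the 20122 genes with a length and 110.4 over protein-coding genes. The members thus ran from among the highest genes of these cells to the lowest listed. The 5 members with the highest counts, *Ctnna1*, *Tjp1*, *Cdh2*, *Cdh16* and *Jup*, held 48.8% of the counts of all members. The members together held 0.301% of all counts.

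**Figure D1:**
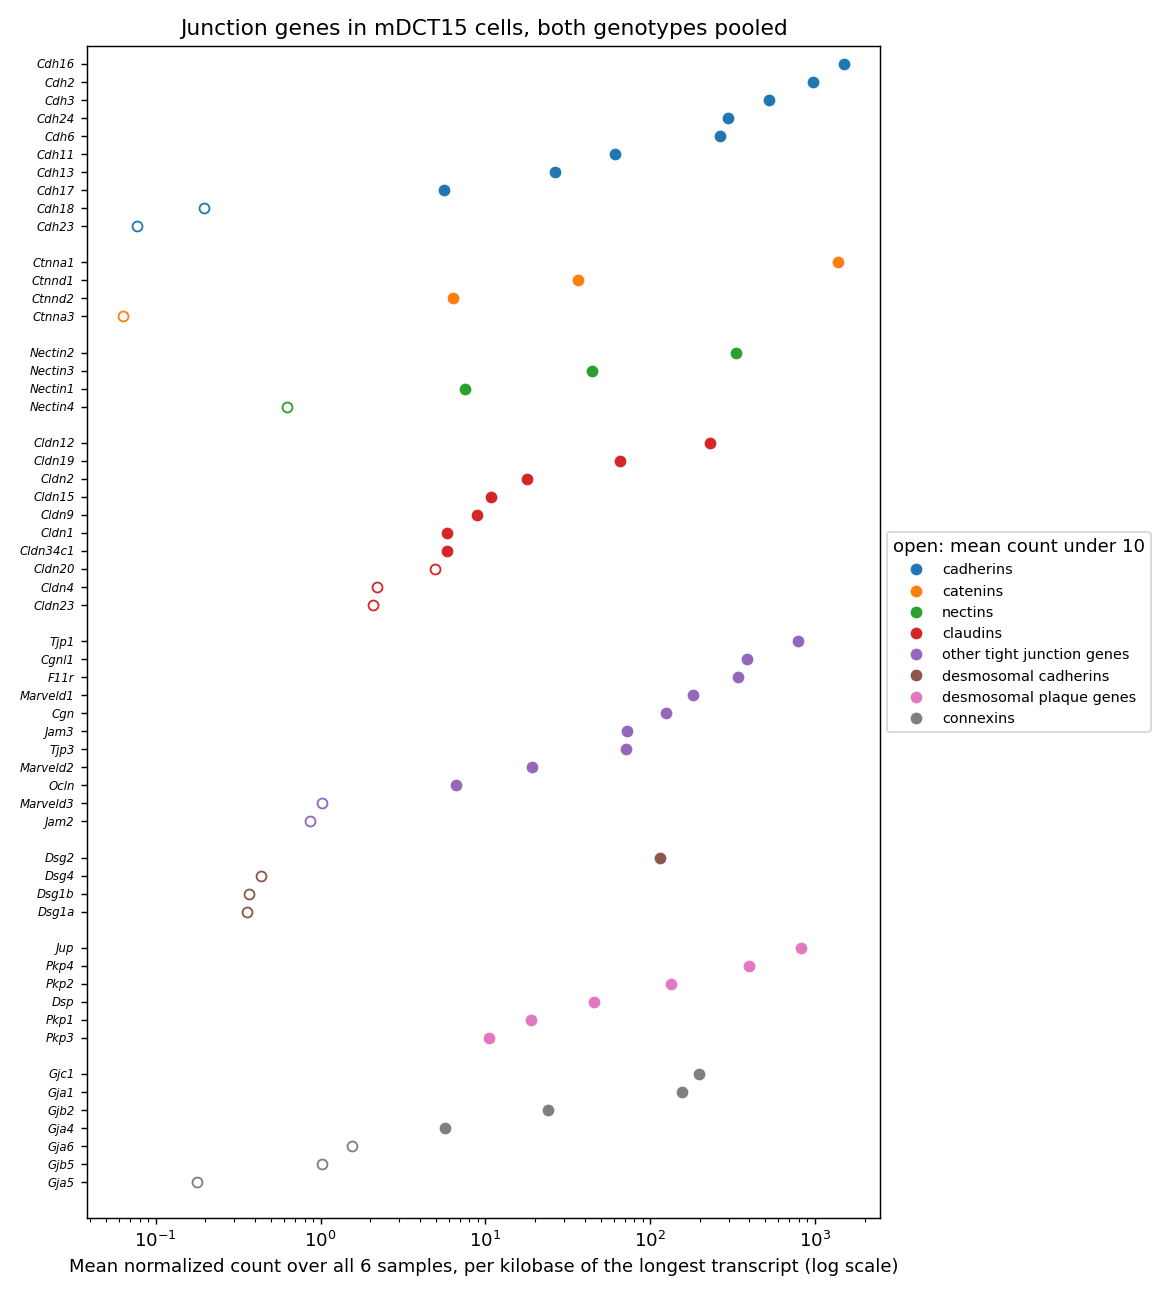
Mean normalized count per kilobase of the longest annotated transcript (horizontal axis, log scale) for 56 of the 60 junction genes, coloured by family, with both genotypes pooled and 1 value per gene. Open circles mark the 15 of them with a mean normalized count under 10. *Cdh16* is highest, at 1500 per kilobase, and the claudins end at 230.5 (*Cldn12*).

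Among cadherins, *Cdh16* led. It encodes kidney-specific cadherin, a cadherin of tubule epithelium with a short cytoplasmic tail (ENSMUSG00000031881, chromosome 8 from 105328543 to 105351028 in GRCm39, minus strand, 18 exons). Its mean normalized count was 4680 and its level 1500 per kilobase, at percentile 98.3 of all genes. *Cdh2*, which encodes N-cadherin, had a mean normalized count of 4790 and 973.4 per kilobase. On that scale *Cdh16* was 1.54-fold above *Cdh2*, whereas the counts without length were nearly equal, with a ratio of 0.977. For *Cdh2*, 17.1% of the exon positions start a sequence of 42 bases, the read length, that occurs elsewhere in the genome, so its count is uncertain.

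The other cadherins with high levels were of several classes. *Cdh3*, which encodes P-cadherin, was at 525.2 per kilobase. Of its merged exons, 11.2% lie opposite another annotated gene. The paper's methods state default parameters for the counting and do not name a strand setting. Whether reads of such opposite genes entered the counts was not tested. The type II cadherin genes *Cdh24* and *Cdh6* followed at 295.5 and 266.7. Without length their order turned, with mean normalized counts of 1034 for *Cdh24* and 2272 for *Cdh6*. *Cdh6* is known from the developing nephron and the proximal tubule. *Cdh11*, a type II cadherin of mesenchyme, was at 61.6 and *Cdh13*, which encodes T-cadherin, anchored by a lipid instead of a tail, at 26.5. *Cdh17*, the closest relative of *Cdh16* and known from liver and intestine, was at 5.64, or 172.5-fold under *Cdh2*. *Cdh18*, known from neurons, and *Cdh23*, known from the hair cells of the inner ear, had mean normalized counts of 1.33 and 0.848. Of the 23 annotated cadherin genes of this naming, 13 were not analysed here, among them *Cdh1*, the E-cadherin gene, which lies 46011 bases after *Cdh3*, and *Cdh5*, the endothelial cadherin gene. *Cdh16* and *Cdh2* together made 67.7% of the summed level of the cadherins per kilobase.

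Among catenins, *Ctnna1*, which encodes alpha-E-catenin, the link from the cadherin complex to actin, had the highest count of all members, 6170, with 1376 per kilobase. It lies on chromosome 18 from 35226033 to 35387833 (plus strand, ENSMUSG00000037815). *Ctnnd1*, whose product binds the cadherin tail near the membrane and keeps cadherins at the surface, had a mean normalized count of 392.6 and 36.3 per kilobase. This is 37.9-fold under *Ctnna1* per kilobase, and 15.7-fold by the counts without length. Of the merged exons of *Ctnnd1*, 37.6% are shared on the same strand with the annotated gene *Gm28635*. The part of this overlap in the low value was not tested. *Ctnnd2*, known from neurons, was at 6.36 per kilobase, and *Ctnna3*, known from heart and testis, had a mean normalized count of 0.674. *Ctnnb1*, the beta-catenin gene, is not among the members by its name and had a mean normalized count of 6947, with 1412 per kilobase, close to *Ctnna1*.

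All 4 nectin genes were analysed. *Nectin2* (ENSMUSG00000062300, chromosome 7 from 19450569 to 19484408, minus strand) was at 333.8 per kilobase and made 86.5% of the nectin sum. *Nectin3* was at 44.2 and *Nectin1* at 7.51, while *Nectin4* had a mean normalized count of 2.43. *Afdn*, which encodes the afadin scaffold that binds nectin tails, was at 616.6 per kilobase. All 8 listed partners of the adherens junction had a mean normalized count of at least 100, from 399.7 for *Pdlim1* to 9871 for *Vcl*, the vinculin gene.

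**Figure D2:**
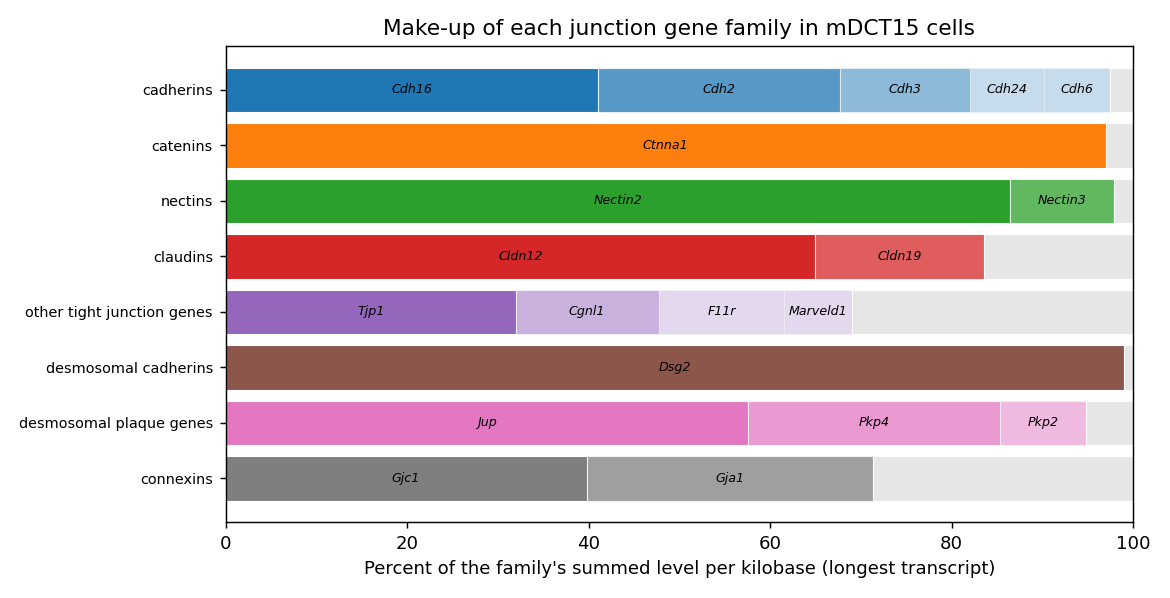
Share of each gene in the summed level of its family, in percent of mean normalized counts per kilobase of the longest transcript, with 1 bar per family, named segments for most genes over 6% and a grey segment for all the others together. *Dsg2* and *Ctnna1* fill nearly the whole bar of their family, with 99.0% and 96.99%, whereas *Tjp1* and *Gjc1* hold 31.97% and 39.8% of theirs.

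Most of the claudin sum per kilobase came from few genes. *Cldn12* (ENSMUSG00000046798, chromosome 5 from 5539537 to 5564995, minus strand, 4 exons) had a mean normalized count of 1930 and 230.5 per kilobase, and made 65.0% of the claudin sum. Its product is an unusual claudin that lacks the motif by which most others bind the zonula occludens proteins. The coding sequence is 732 bases in a longest transcript of 8372, so its level depends strongly on the length that is used. *Cldn19*, whose product forms, with that of *Cldn16*, the cation pathway of the thick ascending limb, was at 65.8 per kilobase, or 3.5-fold under *Cldn12*. Of its merged exons, 21.6% lie opposite the annotated gene *Gm12927*. *Cldn16* was not analysed here.

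Of the other claudins, *Cldn2*, which encodes the cation and water channel of the proximal tubule, had a mean normalized count of 56.3 and 17.9 per kilobase. *Cldn15*, a cation channel former best known from intestine, was at 10.8 per kilobase and *Cldn9*, known from the inner ear, at 8.94. *Cldn1*, a barrier claudin, was at 5.84. *Cldn34c1* was at 5.83, with 84.5% of its exon positions repeated elsewhere in the genome, so that its count is uncertain. *Cldn4*, a claudin of the distal nephron and collecting duct, had a mean normalized count of 4.00, *Cldn23* of 3.87 and *Cldn20* of 3.27. Thus 7 of the 10 claudins analysed reached a mean of 10, and 2 reached 100. The other 26 of the 36 annotated claudin genes, among them *Cldn3*, *Cldn7*, *Cldn8* and *Cldn10*, were not analysed here.

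The scaffold genes of the tight junction covered a wide range of levels. *Tjp1* (ENSMUSG00000030516, chromosome 7 from 64945898 to 65177529, minus strand, 27 exons), which encodes the leading zonula occludens protein, had a mean normalized count of 5628 and 784.7 per kilobase. *Tjp3*, the form most restricted to epithelia, was at 71.5. *Cgnl1*, which encodes paracingulin, was at 386.4 and *Cgn*, which encodes cingulin, at 124.0. *Tjp1* and *Cgnl1* were thus above *Cldn12* per kilobase of the longest transcript, while *Cgn* and *Tjp3* were below it. With the coding length the order of the leading genes turned, with *Cldn12* at 2637 and *Tjp1* at 1063 per kilobase. For *Cgn*, 25.0% of the exon positions are repeated elsewhere in the genome.

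The membrane proteins beside the claudins were unequal. *F11r*, which encodes junctional adhesion molecule A, was at 340.3 per kilobase, *Jam3* at 72.3, and *Jam2*, known from endothelium, had a mean normalized count of 4.65. For *Jam3*, 31.5% of the merged exons lie opposite other annotated genes, among them *Ncapd3*. *Marveld1*, taken in by its symbol alone, was at 181.6 per kilobase. *Marveld2*, which encodes tricellulin, the protein of the corners where several cells meet, was at 19.2 and *Ocln*, the occludin gene, at 6.60. These 2 lie next to each other on chromosome 13, 42928 bases apart, and had mean normalized counts of 60.2 and 52.6. *Marveld3* had a mean normalized count of 2.56. Of the 21 listed tight junction partners outside the members, 18 were analysed and 16 had a mean of at least 100. The highest were *Prkci* (9026), which encodes an atypical protein kinase C of the polarity complex, and *Cxadr* (6742), which encodes an adhesion receptor of tight junctions.

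Of the desmosomal cadherins, *Dsg2* was the one with a mean normalized count over 10. It encodes the desmoglein of simple epithelia, and its mean normalized count was 676.6, with 114.6 per kilobase. *Dsg1a*, *Dsg4* and *Dsg1b*, desmogleins of skin and hair, had mean normalized counts of 2.04, 1.51 and 1.46. *Dsg1a* and *Dsg1b* are near copies of each other, with 38.5% and 50.2% of their exon positions repeated in the genome, so the split between them is uncertain. The 4 genes lie on chromosome 18, with *Dsg3* between *Dsg4* and *Dsg2*. *Dsg3*, *Dsg1c* and the desmocollin genes *Dsc1*, *Dsc2* and *Dsc3* were not analysed here.

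The plaque genes of the desmosome lay on both sides of *Dsg2*. *Jup*, which encodes plakoglobin, a catenin shared by desmosomes and adherens junctions, had a mean normalized count of 3395 and 819.2 per kilobase. *Pkp4*, whose product is found largely at adherens junctions, was at 396.4 per kilobase, and *Pkp2*, the plakophilin of simple epithelia and heart, at 133.9. *Dsp*, which encodes desmoplakin, the link to the filaments, was at 45.3. *Pkp1* and *Pkp3*, best known from stratified epithelia, were at 19.0 and 10.5, so that *Jup*, *Pkp4* and *Pkp2* were above *Dsg2* per kilobase, and *Dsp*, *Pkp1* and *Pkp3* below it. All 6 plaque genes had a mean normalized count of at least 10. Among the partners, *Perp*, which encodes a desmosomal membrane protein, was at 760.7 per kilobase, *Ppl*, the periplakin gene, at 9.60, and *Evpl*, the envoplakin gene, had a mean normalized count of 5.24.

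Among connexins, *Gjc1* (ENSMUSG00000034520, chromosome 11 from 102686879 to 102710532, minus strand), known from vessel walls, heart and embryonic tissue, led with a mean normalized count of 1315 and 197.3 per kilobase. *Gja1*, the most widely expressed connexin gene, had a mean of 893.7 and 156.5 per kilobase, 1.26-fold under *Gjc1*. Whether this ratio exceeds the spread between samples was not tested. *Gjc1* and *Gja1* together made 71.3% of the connexin sum per kilobase. *Gjb2*, known from liver, skin and the inner ear, was at 24.1 and *Gja4*, known from endothelium, at 5.69. Of the merged exons of *Gja4*, 31.8% lie opposite another annotated gene. *Gja6*, *Gjb5* and *Gja5* had mean normalized counts of 3.11, 1.77 and 0.651. In all, 5 of the 10 connexins analysed reached a mean of 10. For *Gja5*, 13.9% of the exon positions are repeated in the genome. Of 7 listed genes of other connexins and pannexins, *Panx1*, which encodes a channel that releases ATP, had a mean of 168.5 and *Panx2* of 1.60.

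Members with high and low levels were compared for the CpG content of the 250 bases before their start. The ratio of observed to expected CpG had a median of 0.605 in the 29 members with a mean normalized count of at least 100, of 0.546 in the 14 with a mean from 10 to under 100, and of 0.291 in the 17 with a lower mean. Over all protein-coding genes of the table the medians were 0.701, 0.458 and 0.326. A ratio of at least 0.6 was found for 15 (51.7%), 6 (42.9%) and 1 (5.88%) of the members, beside 64.9%, 36.1% and 21.7% of protein-coding genes. These are descriptions without a test, and genes that share a family are not independent. *Cdh16*, the member with the highest level per kilobase, has a ratio of 0, and *Cldn19* has 0.145. By contrast, *Cdh2*, *Tjp1* and *Ctnna1* have ratios of 0.835, 0.831 and 0.815, and *Cldn23*, with a mean normalized count under 10, has 0.752.

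**Figure D3:**
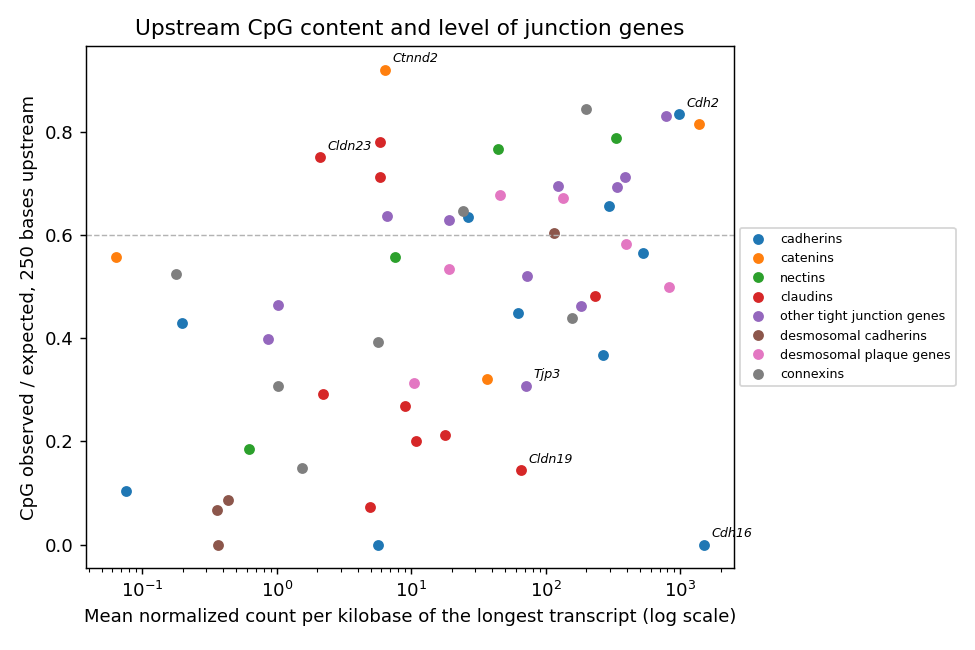
Ratio of observed to expected CpG in the 250 bases upstream of 56 of the 60 members (vertical axis) against the mean normalized count per kilobase (horizontal axis, log scale), coloured by family, with a dashed line at 0.6. *Cdh16* lies at the lower right, at 1500 per kilobase with a ratio of 0, and the 3 low desmogleins at the lower left.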

How the data were processed

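RNA of 3 *Pkd1*-/- and 3 wild type mDCT15 samples was analysed, grouped by their titles. According to the paper's methods and the submitters' processing notes, the authors trimmed reads (Trim Galore 0.4.5), mapped paired reads of 42 bp with STAR 2.7.5a to GRCm39 (Ensembl release 105), counted them with HTSeq 0.11.0 and tested the genotype difference with DESeq2 1.22.0 (R 3.5.3). The deposited table holds, for 20624 genes, the authors' mean normalized count, a signal averaged over all 6 samples. Its other columns hold the authors' log2 fold changes, their errors, test statistics and p-values, which were not used here, so no test was run and no samples were compared. The mean counts sum to 1.67e+07. Depth per sample is unknown, since no pair of the 1257 means under 1 was equal (within 1e-09). The lowest mean is 0.618, although a filter at 5 counts per sample is described in the methods.

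Levels per kilobase used the longest GENCODE M39 transcript (GRCm39, 97.6% of identifiers found). Repeats were exact matches of 42 bases in the genome. CpG ratios and motifs used the 250 bases before the canonical start, with 20120 sequences. Members, lists and named genes were chosen with earlier results of these data known. Named genes were the members with a mean of at least 100, the leading 2 and the lowest of each family, and those among kidney tubule and endothelial markers, to which other members were added after their values were seen. The alternatives were coding length, merged exon length, no length correction, other minimum counts and summed identifiers. Python 3.11.15, numpy 2.4.6, pandas 2.3.3 and matplotlib 3.10.9 were used. The helper functions were tested on made-up input. Protein sequences were not used here, and some members are counted in the totals but not reported singly here.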

Additional observations from a re-analysis of the deposited data

How the results depend on the processing

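The length behind a level mattered most. Of the 10 members with the highest level per kilobase, 6 were among the 10 highest with the coding length, where *Cldn12* led, all 10 with merged exons and 9 without a length. The share of the leading gene in its family was 30.3% for *Cdh16*, 93.9% for *Ctnna1*, 80.5% for *Cldn12*, 45.5% for *Gjc1*, 99.2% for *Dsg2*, 56.7% for *Jup*, 68.5% for *Nectin2* and 19.0% for *Tjp1* with the coding length. It was 43.6% for *Cdh16*, 94.9% for *Ctnna1*, 61.5% for *Cldn12*, 38.6% for *Gjc1*, 98.4% for *Dsg2*, 45.9% for *Jup*, 89.3% for *Nectin2* and 33.7% for *Tjp1* with merged exons, and 29.9% for *Cdh16*, 93.4% for *Ctnna1*, 81.7% for *Cldn12*, 49.9% for *Gjc1*, 99.3% for *Dsg2*, 47.3% for *Jup*, 67.9% for *Nectin2* and 40.3% for *Tjp1* without a length. The leading gene was the same in 8 of 8 families with merged exons and in 7 with each of the other scales, where *Marveld1* passed *Tjp1* with the coding length (23.5%) and *Cdh2* passed *Cdh16* without a length (30.6%). Without a change of over 1.5 times, 43 members reached a mean of 5, 34 a mean of 50 and 35 a level of 10 per kilobase. Summing identifiers changed no value. Leaving out samples was not possible with a mean over all of them. No paired analysis was possible because the values used were means over all samples. Depth limits the members under 10 most, whose order was not tested.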

Other observations

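A short list of motifs was searched on both strands of the 250 bases upstream of the 60 members, after the data were seen and without a test. The E-box CAGGTG or CACCTG, bound by the Snail and Zeb repressors and by other factors, occurred in 17 members (28.3%) and in 16.9% of all 20120 upstream sequences. Among the 29 members with a mean normalized count of at least 100, 11 (37.9%) held it, beside 15.6% of protein-coding genes at that level. From 10 to under 100 the shares were 21.4% and 19.3%, and under 10 they were 17.6% of members and 22.2% of protein-coding genes. The members that held it included *Cdh2*, *Cdh3*, *Gjc1*, *Nectin2* and *Dsg2* at 100 or more, and *Cldn4*, *Cldn23* and *Marveld3* under 10. TATAAA or TTTATA occurred in 8 members (13.3%), in 10.3% of all sequences and in 7.46% of those of protein-coding genes. A match is not a site of binding.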
